A study of Sus scrofa with 599 samples.

Results

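Topologically associating domains (TADs) of at least 1 Mb, called large TADs here, were examined in the Hi-C data of 4 adipose tissues (ATs) of pigs. A TAD was counted as large when the end of the deposited call lay at least 1 Mb after its start. This rule gave 84990 large TADs among the 1199917 TADs of 240 samples, which is 7.08% of the TADs and 21.99% of their summed length. Because called length chose the members, length itself is given only as a description.

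The tissues came from adult female Bama pigs, a miniature breed. Greater omentum (GOM) and the adipose tissue of the mesentery (MAD) and the retroperitoneal space (RAD) are visceral ATs (VATs), and the upper layer of backfat (ULB) is subcutaneous. Pigs of the NC groups ate a normal diet, those of the WG groups gained weight on a high-fat diet, and those of the WL groups had the same high-fat diet and then a restricted one. The comparisons ask how the domain level of genome folding differs between ATs and between nutritional states. Hi-C samples numbered 9 in NC_GOM, 46 in WG_GOM, 10 in WL_GOM, 12 in NC_MAD, 37 in WG_MAD, 10 in WL_MAD, 12 in NC_RAD, 40 in WG_RAD, 10 in WL_RAD, 5 in NC_ULB, 39 in WG_ULB and 10 in WL_ULB. WL was reached only by way of the high-fat diet, so restriction and the earlier weight gain cannot be told apart by a comparison of WL with NC. All animals were female and of a single breed. The labels do not say which samples came from the same pig.

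A TAD is a stretch of chromosome whose parts contact each other more often than they contact the neighbouring stretches. Loops held by cohesin and stopped at sites of the insulator protein CTCF form many of its boundaries, and a promoter usually meets its enhancers inside the same domain. On a coarser scale, chromatin separates into an A compartment, which is open and rich in genes, and a B compartment, which is compact, poor in genes and often near the nuclear lamina. Long domains with few genes, known as gene deserts, often surround genes that steer development or neuronal wiring. Fat depots keep a memory of their place in the body through such developmental regulators.

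CTCF core motifs at the ends of the most recurrent large TADs are shown first, because CTCF sites are the sequence feature most tied to TAD boundaries. The sequences were read from the Sscrofa11.1 reference, each 5′ to 3′ on the strand named, with the CTCF core in capitals. They are all the matches within 20 kb of an end of the 10 large TADs found in most samples, and those TADs are described further on.
CDH11 domain, right end, minus strand of chr6:27087282-27087335: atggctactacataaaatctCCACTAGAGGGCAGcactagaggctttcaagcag
SP4 domain, right end, plus strand of chr9:90944809-90944862: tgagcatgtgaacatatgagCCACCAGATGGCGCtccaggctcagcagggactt
SP4 domain, right end, plus strand of chr9:90949462-90949515: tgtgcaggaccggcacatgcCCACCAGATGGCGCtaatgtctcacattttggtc
SDC2 domain, left end, plus strand of chr4:39173244-39173297: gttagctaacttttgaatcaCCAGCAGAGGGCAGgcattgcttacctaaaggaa
NR4A2 domain, left end, plus strand of chr15:62738165-62738218: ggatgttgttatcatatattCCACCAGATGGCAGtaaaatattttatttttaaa
A match is a description of letters and not a measured CTCF site. The motif was searched on both strands, and 5.03% of all 20-kb bins and 9.52% of all pairs of neighbouring bins hold a match. Of the 118 ends of the 59 recurrent large TADs, 18 (15.3%) had one in the 2 bins that meet there. Over all large TADs, 13.97% ± 1.26 of the ends had a match (mean ± SD of 240 samples), against 21.4% ± 0.60 for TADs between 200 kb and 1 Mb and 23.4% ± 1.12 for TADs of at most 200 kb. In these 3 length classes the ends of the large TADs thus held the motif least often, and still more often than neighbouring bins in general.

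The median length of the large TADs was 1240 kb, with quartiles of 1100 and 1520 kb, and 7422 of them (8.73%) reached 2 Mb. The longest call, chr1:44220001-49560000, spanned 5340 kb in a single sample, WG_MAD replicate 28. It held 16 protein-coding genes (PCGs), among them RFX6, ROS1 and the retinal gene EYS. The longest large TAD found in at least 5 samples was chr1:169940001-175120000, present in 18 samples, with LRFN5, a synaptic adhesion gene, and FSCB inside. TADs just above the limit, of 1000 to 1040 kb, numbered 12648 and held 3.99 PCG starts per Mb at a GC content of 39.5%. Those just below it, of 940 to 980 kb, numbered 16294 and held 4.45 PCG starts per Mb at a GC content of 39.6%. The limit therefore cuts through a continuous range of lengths.

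A sample had between 227 and 461 large TADs, which together covered 13.02% to 28.8% of the autosomes. Chromosome 1 carried most, with an average of 91.4 per sample covering 51.0% of its length, followed by chromosome 13 with 59.9 and 41.8%, and chromosome 8 with 40.6 and 39.1%. On chromosome 12 the covered share was 0, on chromosome 17 it was 0.178%, on chromosome 18 it was 0.584% and on chromosome 10 it was 0.688%. Several whole-series facts bear on these values. The TAD calls and the compartment values come without contact counts, so their precision is known only from the spread between samples. Within groups, a doubling of the valid contacts that the study lists went with 9.16 more large TADs and 1.46 percentage points more of the genome in them. In the matched RNA, none of the 14 adipocyte markers measured had a group median of 0, and their summed level had group medians of 9821 to 29240 TPM, a level scaled for transcript length and depth. The summed level of the 3 mesothelial markers measured had medians of 175 to 249 TPM in the 3 GOM groups and 4.51 to 12.4 TPM elsewhere, and the part of such cells in the results for GOM was not tested. In bulk tissue, fewer cells of a type and less RNA per cell cannot be told apart.

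Large TADs were fewest in subcutaneous fat under every diet. In the NC groups, the 5 ULB samples had 294, 244, 241, 244 and 230 large TADs. The 9 GOM samples ranged from 327 to 426 around a median of 402, and the 12 MAD samples from 360 to 461 around 404. ULB did not overlap with either of these. The 12 RAD samples spanned 266 to 401 with a median of 320.5, so RAD lay between ULB and the other VATs and overlapped with both. The number in NC_ULB was lower than in NC_GOM by a shift of -141 (95% interval -172 to -97, adjusted p = 0.00272), than in NC_MAD by -155 (-179 to -119, adjusted p = 0.00121) and than in NC_RAD by -74 (-111 to -26, adjusted p = 0.00525). These shifts are Hodges-Lehmann estimates with an exact two-sided rank-sum test, adjusted over 30 pairs of groups. NC_RAD was also below NC_GOM (-63.5, adjusted p = 0.00149) and NC_MAD (-75.5, adjusted p = 0.000133).

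After weight gain the VATs drew together and ULB stayed lowest. WG_GOM ranged from 309 to 447 (median 376.5), WG_MAD from 313 to 445 (381) and WG_RAD from 270 to 411 (369.5), while WG_ULB ranged from 227 to 367 (291). The ranges overlapped, but the shifts were far larger than the spread of their estimates. WG_ULB was lower than WG_GOM by -83 (-100 to -65, adjusted p = 7.6e-15), than WG_MAD by -82 (-100 to -65, adjusted p = 6.13e-16) and than WG_RAD by -71 (-88 to -53, adjusted p = 1.08e-12; exact rank-sum test). None of the 3 pairs of VATs in WG passed the test, with shifts of 1 (-12 to 14), -10 (-24 to 2) and -10 (-21 to 0). In WL, the range was 244 to 344 in ULB (median 296), 301 to 393 in GOM (353.5), 355 to 406 in MAD (376.5) and 320 to 399 in RAD (364), and ULB did not overlap with MAD. All 3 WL pairs with ULB passed the exact rank-sum test (shifts of -51.5, -79.5 and -67.5, adjusted p of 0.00144, 8.12e-05 and 0.000217). In all, 12 of the 18 pairs of ATs passed, and ULB was the lower tissue in 9 of them. The call between WL_GOM and WL_MAD (30.5, 7 to 53, adjusted p = 0.00807) was lost with a length limit of 800 kb or 1200 kb.

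The genome share showed the same order. Its group median was 14.2% in NC_ULB, 17.7% in WG_ULB and 17.7% in WL_ULB, against 20.0% to 25.5% in the 9 VAT groups. The share was lower in ULB in all 9 pairs with a VAT, by -10.6, -10.5 and -5.15 points in NC, -5.94, -5.82 and -4.99 points in WG and -3.80, -5.86 and -4.10 points in WL, each past the exact rank-sum test. ULB also had more TADs in all, with a median of 5590 in NC_ULB and 5264 in WG_ULB, against 4781 to 5218.5 in the 3 VATs of NC and 4876 to 4955.5 in those of WG.

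**Figure D1:**
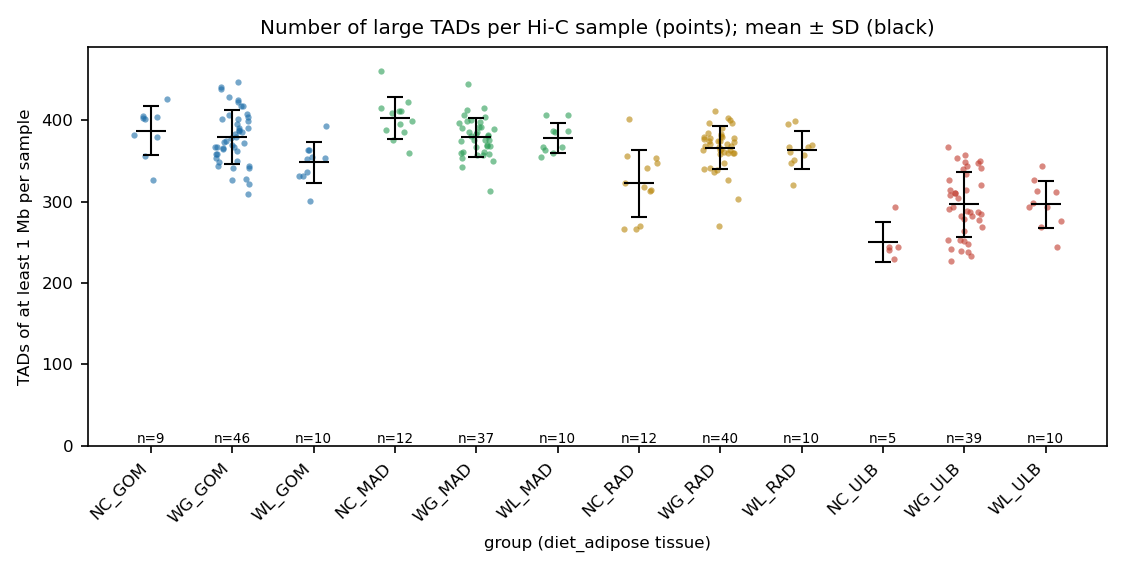
Number of large TADs per sample on the vertical axis, for the 12 groups of diet and AT on the horizontal axis. Each point is a Hi-C sample, with the group mean ± SD in black; the means of the 3 ULB groups (251 in NC, 297 in WG and 297 in WL) lie below those of the 9 VAT groups (323 to 403).

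Differences between diets went in opposite directions in different ATs. In RAD the number was higher in WG than in NC, by a shift of 45 (22 to 65, adjusted p = 0.000774), and in ULB by 46 (9 to 84, adjusted p = 0.0283). In MAD it was lower in WG, by -23 (-39 to -7, adjusted p = 0.0103). GOM had a shift of -12 (-35 to 15), which did not pass the exact rank-sum test (adjusted p = 0.422). The WG minus NC difference itself differed between RAD and MAD by 67.2 large TADs and between ULB and MAD by 69.7 (permutation tests of the interaction, adjusted p = 0.00018 and 0.00209 over 36 interactions). Restriction after weight gain was followed by fewer large TADs in GOM (-30, -52 to -10, adjusted p = 0.0103). In MAD, RAD and ULB the WG to WL shifts were -1 (-16 to 14), -7 (-19 to 10) and 1.5 (-28 to 29), none of them past the exact test. Compared with NC, WL was lower in GOM (-44, adjusted p = 0.0172) and MAD (-24, adjusted p = 0.0278) and higher in RAD (43, adjusted p = 0.0128) and ULB (50, adjusted p = 0.0239; exact rank-sum tests). The diet calls were less firm than those between ATs. The 4 calls in GOM and MAD were lost at a length limit of 800 kb, and the WL call in RAD and both ULB calls at 1200 kb. Both ULB calls were also lost when any of NC_ULB replicates 5, 7, 9 or 12 was left out, with 4 samples then remaining.

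In genome share, 5 of the 12 diet pairs passed. The share was higher in WG_RAD than in NC_RAD by 2.78 points (adjusted p = 0.00151). It was lower in WG_MAD and WL_MAD than in NC_MAD, by -1.79 and -2.09 points (adjusted p = 0.00607 and 0.0258), and lower in WL_GOM than in WG_GOM and NC_GOM, by -2.36 and -3.38 points (adjusted p = 0.00684 and 0.0203). In ULB the shift from NC to WG was 2.85 points with an interval of -0.0035 to 5.24 (adjusted p = 0.0829, exact rank-sum test).

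Large TADs lay mostly in the B compartment. The A-B index is a score that is positive for a 20-kb bin in compartment A and negative for one in compartment B. It was not used to choose the TADs, but it comes from the same contact matrices. The mean index inside large TADs was lower than over the remaining bins of the same sample in 240 of 240 samples, by -2.21 to -0.815. Group medians of this difference ran from -1.75 in WL_GOM to -1.41 in WL_RAD. It passed the exact signed-rank test in 11 of 12 groups, with a largest adjusted p of 0.00426, and NC_ULB with 5 samples could not pass, since the smallest p the exact test allows there is 0.0625. Of the bins inside large TADs, group medians of 22.3% to 32.6% lay in A, against 49.7% to 55.2% of the rest.

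Single large TADs were not all of this kind. On average over samples, 51.7% ± 3.69 (SD, n = 240) of them had at least 90% of their bins in B, 13.1% ± 2.50 had at least 90% in A and 35.2% ± 2.75 were mixed. Among the TADs between 200 kb and 1 Mb, 32.7% were of the B kind, 46.2% of the A kind and 21.03% mixed. The index also became lower with length: its mean was 0.62 in TADs of at most 200 kb, 0.13 in those up to 1 Mb, -1.44 in large TADs and -1.95 in those of at least 2 Mb. Over the same 4 classes the density of PCG starts was 15.3, 8.92, 3.07 and 1.64 per Mb, and the GC content was 45.3%, 42.7%, 38.2% and 36.7%. Large TADs of every sample held fewer PCG starts per Mb and a lower GC content than the rest of the genome.

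The index was lowest in the middle of large TADs and rose over their ends. In profiles drawn through the start and end of each large TAD, the 12 group means lay between -1.58 and -0.97 at the midpoint, between -1.20 and -0.65 in the last bin before the start and between -1.23 and -0.68 in the first bin after the end. At 500 kb outside, they lay between -1.06 and -0.51 before the start and between -1.14 and -0.57 after the end. The flanks were thus still below 0 in every group.

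The contrast between the inside and the rest was weaker in ULB of the WG groups. WG_ULB had a median difference of -1.44, ranging from -1.88 to -1.13. It was less negative than WG_GOM by 0.18 (adjusted p = 0.00292), than WG_MAD by 0.23 (adjusted p = 0.000732) and than WG_RAD by 0.26 (adjusted p = 0.000732; exact rank-sum tests). In RAD, WL was less negative than WG by 0.34 (adjusted p = 0.00236) and than NC by 0.29 (adjusted p = 0.00759), and WL_RAD was less negative than WL_GOM by 0.36 (adjusted p = 0.00292). Sequencing depth moves with this measure, since a doubling of contacts within groups went with a change of -0.32. With that slope removed, the call between NC_RAD and WL_RAD was lost, at a shift of 0.06.

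Active enhancers were also sparser in large TADs. The deposited enhancer tables, made from H3K27ac, a histone mark of active enhancers, numbered 18. In bins found inside large TADs by 70% or more of a group's samples, 3.64 to 6.70 enhancers per Mb were listed, against 8.68 to 12.5 per Mb in the remaining bins. The ratio was 0.375 to 0.720 and below 1 in all 18 tables. These tables hold pooled samples, except that the labels list a single H3K27ac sample for NC_MAD, and no test was run.

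Much of the genome could fall in a large TAD, but little of it always did. Of the 113298 bins, 38.5% lay in a large TAD in no sample, 32.3% in under 30% of samples, 16.98% in 30% to 70%, and 12.2% (276 Mb) in at least 70%. Only 210 bins (4.2 Mb) did so in all 240 samples. Gene density fell along these 4 zones, from 14.2 PCG starts per Mb in the first to 6.02, 3.42 and 2.35 in the last. The GC content fell likewise, from 45.6% to 40.8%, 38.7% and 37.5%, and the share of bins in A from 68.9% to 24.5%. The genes that start in the last zone had expression levels near those elsewhere. Detected, which means above 0.5 TPM in 80% or more of the libraries of some group, were 84.2% of its 474 genes with expression values, against 84.0% of the 8483 in bins outside large TADs in every sample, and the median levels were 12.6 and 12.2 TPM.

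**Figure D2:**
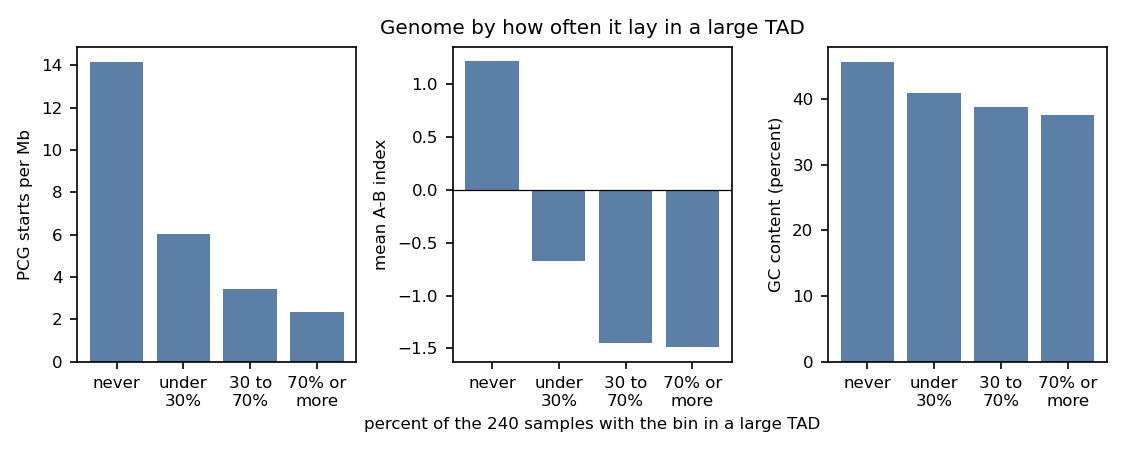
Features of the genome in 4 zones by the share of the 240 samples in which a bin lay in a large TAD (horizontal axis). Bars give, from left to right, PCG starts per Mb, the mean A-B index (no unit) and the GC content in percent; all 3 are highest in the bins that lay in a large TAD in no sample (14.2 per Mb, 1.22 and 45.6%) and lowest in those of at least 70% (2.35 per Mb, -1.49 and 37.5%).

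The members of several gene lists were counted in these zones. Over all PCGs, 3.46% (648 of 18725) started in the zone of at least 70%. Of the neuronal adhesion and synapse genes, 12 of 69 (17.4%) did so, among them ROBO1 and SLIT2, a receptor and a ligand of axon guidance, the protocadherin PCDH7, FLRT2 and NEGR1. Of the patterning transcription factors, 8 of 103 (7.77%) did so, among them NR2F2, BNC2, TSHZ1, SATB1 and TCF21. Of the glutamate and GABA receptor genes, 3 of 36 (8.33%) did so (GRIN3A, GABRG1 and GRIK2), and of the ribosomal protein genes 4 of 77 (5.19%), including RPS12 and RPS29. Genes of lipid storage and metabolism had 2 of 50 (4.00%), the insulin receptor substrate IRS1 and ACADM, which starts the mitochondrial oxidation of medium-chain fatty acids. Of the adipocyte markers 0 of 14 were in this zone, and 13 of 14 started where no sample had a large TAD, as did 65.98% of all PCGs. The lists of progenitor, mesothelial, macrophage and endothelial markers had 0 members in the zone too. At the 3.46% of all PCGs, lists this short would hold few members or none, so nothing is read from their counts. The lipid and ribosomal protein lists lay near the 3.46% too, and with 3 members nothing is read from the receptor list either. The counts over lists were not tested.

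Some of these genes had levels that differ widely between ATs. TCF21, a regulator of visceral fat and other mesoderm, had median levels of 6.73 TPM in WG_GOM (2.61 to 26.7), 8.33 in WG_MAD (3.38 to 21.8), 0.371 in WG_RAD (0 to 0.852) and 0.0542 in WG_ULB (0 to 2.31). GOM and MAD did not overlap with the other ATs. Its log2 fold change from WG_GOM to WG_ULB was -5.81 (SE 0.31, adjusted p = 1.97e-29, edgeR). The neuronal adhesion gene NEGR1 went the other way, from a median of 1.36 TPM in WG_GOM to 20.9 TPM in WG_ULB (log2 fold change 3.81, SE 0.17, adjusted p = 6.28e-34, edgeR).

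With both ends required within 100 kb, large TADs recurred in fewer samples than shorter ones. The 84990 calls had 38289 different pairs of start and end, 25584 of them seen in a single sample, and no pair was seen in more than 161 samples. Given a large TAD of a sample, a median of 31.7% of the other samples had a TAD with both ends within 100 kb, against 58.6% for the TADs between 200 kb and 1 Mb, and large TADs were lower in all 240 samples. A fixed tolerance is stricter for a long TAD, and with a reciprocal overlap of 80% instead the medians were 46.6% and 50.8%, with large TADs lower in 199 of 240 samples. In the 3 ULB groups large TADs were then the higher ones, by medians of 2.52 percentage points in NC, 0.58 in WG and 0.75 in WL, none of which passed the exact signed-rank test (adjusted p = 0.0833, 0.259 and 0.12, and the smallest raw p that the 5 NC samples allow is 0.0625). By this overlap TADs of at most 200 kb had a median of 35.3%, below that of large TADs.

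Merged within 100 kb at both ends, the large TADs formed 6784 non-redundant ones. Of these, 1613 were found in 1 sample, 1337 in at least 10% of samples, and 59, called recurrent here, in at least 70%. The 59 lay at 57 separate places and covered 75.5 Mb. They were found on 10 of the 18 autosomes, with 19 on chromosome 1 and 14 on chromosome 13. They held 191 PCGs, 2.53 per Mb against 8.26 per Mb over all bins. Of the 59, 4 had no PCG start, 14 had 1 and 14 had 2. Their mean A-B index was below 0 in 41, and in 37 it was below 0 in every sample. In 9 it was above 0 in every sample, and these held SPRY1, BCL6 with LPP, RUNX1, TLE3, DDIT4L with BANK1, FNDC3B, HEY2 with NCOA7, TBL1XR1, and SKIL with CLDN11. Where a recurrent large TAD was not found in a sample (2473 cases), a boundary lay inside it in 1627 (65.8%).

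The 10 most recurrent large TADs each held 1 to 8 PCGs. The CDH11 domain, chr6:25880001-27080000, was found in 236 samples. CDH11 encodes cadherin 11, an adhesion molecule of mesenchymal cells. It and a second gene model were the only PCGs that start in these 1200 kb of compartment B (mean index -1.52), beside 3 other genes. Next were the domain of the transcription factors SP4 and SP8 with DNAH11 and CDCA7L, chr9:89660001-90960000 (235 samples, index -1.62), and that of LRRN1, chr13:59760001-60960000 (234 samples, -3.06). LRRN1 was nearly silent, with a mean of 0.56 TPM, while CDH11 had 55.1 TPM.

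The fourth, chr8:100060001-101180000 (231 samples), held SPRY1 as its only PCG and lay in compartment A (index 1.75). SPRY1 restrains growth factor signalling through receptor tyrosine kinases, and its mean level was 80.6 TPM. The domain of IRS1 and the protease RHBDD1, chr15:127320001-128440000, was found in 230 samples (-1.77), with 11.2 TPM for IRS1 and 11.9 TPM for RHBDD1. The domain of PRKG1, the cyclic GMP-dependent protein kinase, and CSTF2T, chr14:97560001-98900000, was found in 229 samples (-1.68). The domain of the matrix proteoglycan VCAN, with XRCC4 and TMEM167A, chr2:90720001-91860000, was found in 226 (-1.33).

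The remaining 3 were the domain of SDC2, MTERF3, CPQ and PTDSS1 at chr4:39160001-40380000 (225 samples, index 1.16), that of CD47, BBX and IFT57 at chr13:150940001-152400000 (219 samples, 0.56) and that of NR4A2 and GPD2 at chr15:62740001-64220000 (216 samples, -1.24). SDC2, a cell-surface proteoglycan, had a mean level of 218 TPM. CD47, the signal that protects cells from phagocytosis, had 75.5 TPM. NR4A2 is an immediate early nuclear receptor, at 12.5 TPM, and GPD2, the mitochondrial glycerol phosphate dehydrogenase, had 25.2 TPM. DNAH11, a motor protein of cilia, had 0.811 TPM.

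The recurrent large TADs were found in VATs and ULB at similar rates over the list, with medians of 84.9% and 85.2%, but single ones differed. The domain of OTX2 and TMEM260, chr1:185820001-187220000, was found in 27.8% of ULB samples and in 83.1%, 91.5% and 87.1% of GOM, MAD and RAD. That of PDE4B and IL23R, chr6:145320001-146800000, was found in 40.7% of ULB and in 0 of the 5 NC_ULB samples, against 90.8%, 96.6% and 82.3% of the VATs. BANK1 with DDIT4L, chr8:118620001-120480000, and PRKAA2 with PLPP3, chr6:155740001-157100000, were each found in 42.6% of ULB. The last holds the catalytic subunit of the energy sensor AMPK. The NR4A2 domain was found in 74.1% of ULB and 98.3% of MAD.

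**Figure D3:**
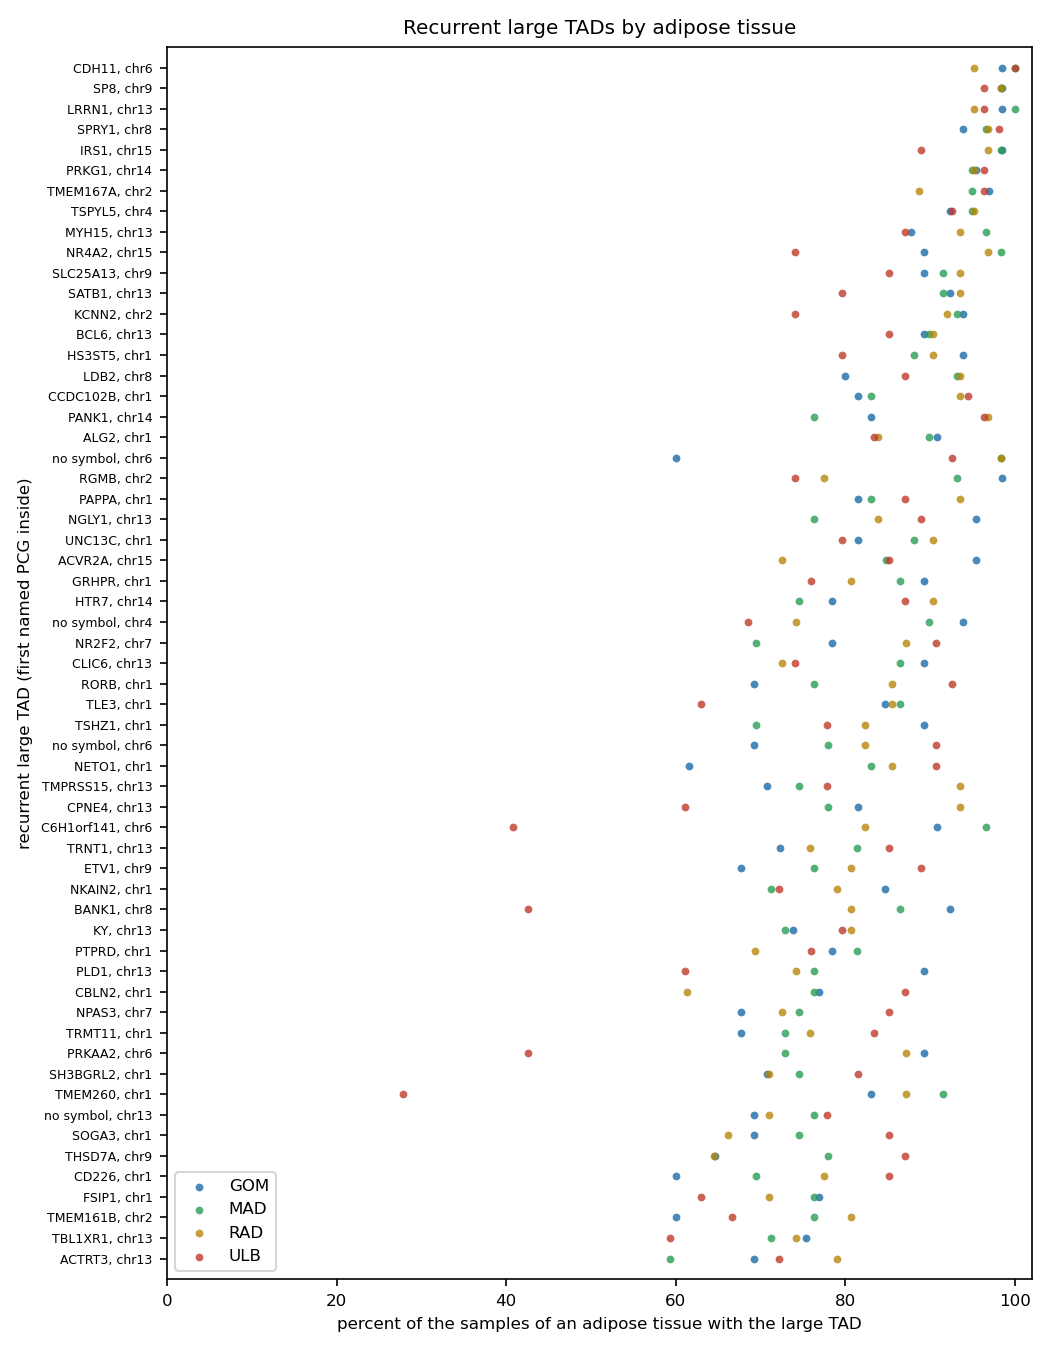
Percent of the samples of an AT with the large TAD (horizontal axis) for the 59 recurrent large TADs (vertical axis, named by the first named PCG inside and ordered by frequency); each point is an AT, coloured as GOM, MAD, RAD or ULB. The leftmost points belong to ULB, with TMEM260 (the domain that also holds OTX2) at 27.8%. The list was chosen over all samples, mostly VATs, so a large TAD rare in ULB could enter it and one rare in all VATs could not.

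Frequencies were then compared TAD by TAD for the 1337 found in at least 10% of samples, with Fisher's exact test on the numbers of samples, adjusted over the TADs of a comparison. Over the 6 AT pairs of WG, 683 of 8022 tests passed (8.51%). Between WG_GOM and WG_ULB 248 did (18.5%), of which 191 were less frequent in ULB. Between WG_MAD and WG_ULB there were 213 (15.9%), 166 of them less frequent in ULB, and between WG_RAD and WG_ULB 142 (10.6%), 107 of them less frequent. ULB had fewer large TADs in all, and the 1337 were listed from samples that are mostly VATs. The share of all 1337 that were less frequent in ULB is not given, so nothing is read from these directions. Between VATs, WG_GOM differed from WG_RAD in 64 (4.79%) and from WG_MAD in 16 (1.2%), while WG_MAD against WG_RAD gave 0 by Fisher's exact test, where 107 had an unadjusted p below 0.05. No diet comparison gave a call. The smaller group there had 5 to 12 samples, against 37 to 46 in each group of the AT pairs. The 0 calls therefore do not show that the frequencies stayed the same. NC against WG gave 0 over the 4 ATs (0%), with 47, 42, 52 and 11 at an unadjusted p below 0.05 in GOM, MAD, RAD and ULB, and WG against WL gave 0 (0%), with 43, 52, 60 and 73.

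Between GOM and the other VATs, the places with the largest differences of frequency were these. The domain of PIK3C3 and SYT4, chr6:125840001-127700000, was found in 24 of 46 WG_GOM samples and 0 of 37 WG_MAD samples (adjusted p = 2.38e-05, exact test). That of RBMS3 and AZI2, chr13:14780001-16440000, was found in 27 of 46 and 5 of 37. The domain of NOX3 and TFB1M, chr1:10460001-11620000, went the other way, with 5 of 46 and 25 of 37 (adjusted p = 8.89e-05, exact test), as did that of PKP2 and SYT10, chr5:40180001-41560000, with 6 of 46 and 22 of 37.

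HGF, a growth factor made by mesenchymal cells, shares chr9:97460001-98760000 with the calcium channel subunit CACNA2D1. This large TAD was found in 36 of 46 WG_GOM samples, 9 of 40 WG_RAD samples and 6 of 39 WG_ULB samples (adjusted p = 0.000146 and 2.52e-06, exact tests). It was also found in 9 of 9 NC_GOM and 0 of 5 NC_ULB samples. A variant of the SYT10 domain, chr5:40120001-41420000, was found in 24 of 46 WG_GOM and 0 of 40 WG_RAD samples. UNC13C, chr1:116640001-117860000, and WDR72 with ONECUT1, chr1:117880001-118960000, lie next to each other, and both were more frequent in WG_RAD (33 and 29 of 40) than in WG_GOM (16 and 12 of 46). A longer version, chr1:116640001-117980000, holds the starts of both UNC13C and WDR72. It was found in 81.5% of all GOM and 90.3% of all RAD samples, so a large TAD around UNC13C was common in GOM too.

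Against ULB, the largest differences included a pair of homeobox genes. The domain of DYNC1I1, DLX5 and DLX6, chr9:75360001-76700000, was found in 26 of 37 WG_MAD, 25 of 40 WG_RAD and 1 of 39 WG_ULB samples (adjusted p = 8.83e-08 against MAD and 5.6e-06 against RAD, exact tests). DLX5 and DLX6 are homeobox genes of limb and craniofacial patterning, and both were close to 0 TPM (means of 0.0437 and 0.0701). A shorter version in which DYNC1I1 does not start, chr9:75600001-76700000, was found in 35 of 39 WG_ULB and 11 of 37 WG_MAD samples (adjusted p = 1.21e-05, exact test). Another short version was common in every AT: chr9:75480001-76640000, which holds the starts of SLC25A13 and DLX6 and not that of DYNC1I1, was found in 216 samples, 89.2% of those of GOM, 91.5% of MAD, 93.5% of RAD and 85.2% of ULB. Since a TAD counts as found when both ends are within 100 kb, 1 call can count for more than 1 of these versions.

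The OTX2 domain was found in 34 of 37 WG_MAD, 35 of 40 WG_RAD and 10 of 39 WG_ULB samples. The domain of STMN2, IL7 and PKIA, chr4:56940001-58080000, was found in 33 of 46 WG_GOM and 4 of 39 WG_ULB samples. More frequent in WG_ULB were the domains of ARAP2 and NWD2, chr8:27840001-28860000 (30 of 39 against 9 of 46 in GOM), of PTPRK and THEMIS, chr1:34460001-35600000 (29 of 39 against 9 of 46), of PLCH1, GMPS and TIPARP, chr13:95640001-97000000 (33 of 39 against 12 of 37 in MAD and 10 of 40 in RAD), and a stretch without a PCG start, chr6:24380001-25660000 (29 of 39 against 6 of 40 in RAD). In WL, the ARAP2 domain was found in 40% of ULB and 50% of MAD samples, and the PTPRK domain in 30% of ULB and 50% of RAD samples. The PLCH1 domain and the stretch on chromosome 6 were still most frequent in WL_ULB, at 80% and 40%. The tolerance at the ends matters for single places. With ends within 40 kb, 12 of these 20 calls were lost, among them those of the OTX2, STMN2, ARAP2, PTPRK, NOX3, UNC13C and WDR72 domains, HGF between GOM and RAD, and the shorter DLX version, while a match to a TAD of any length lost none.

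**Figure D4:**
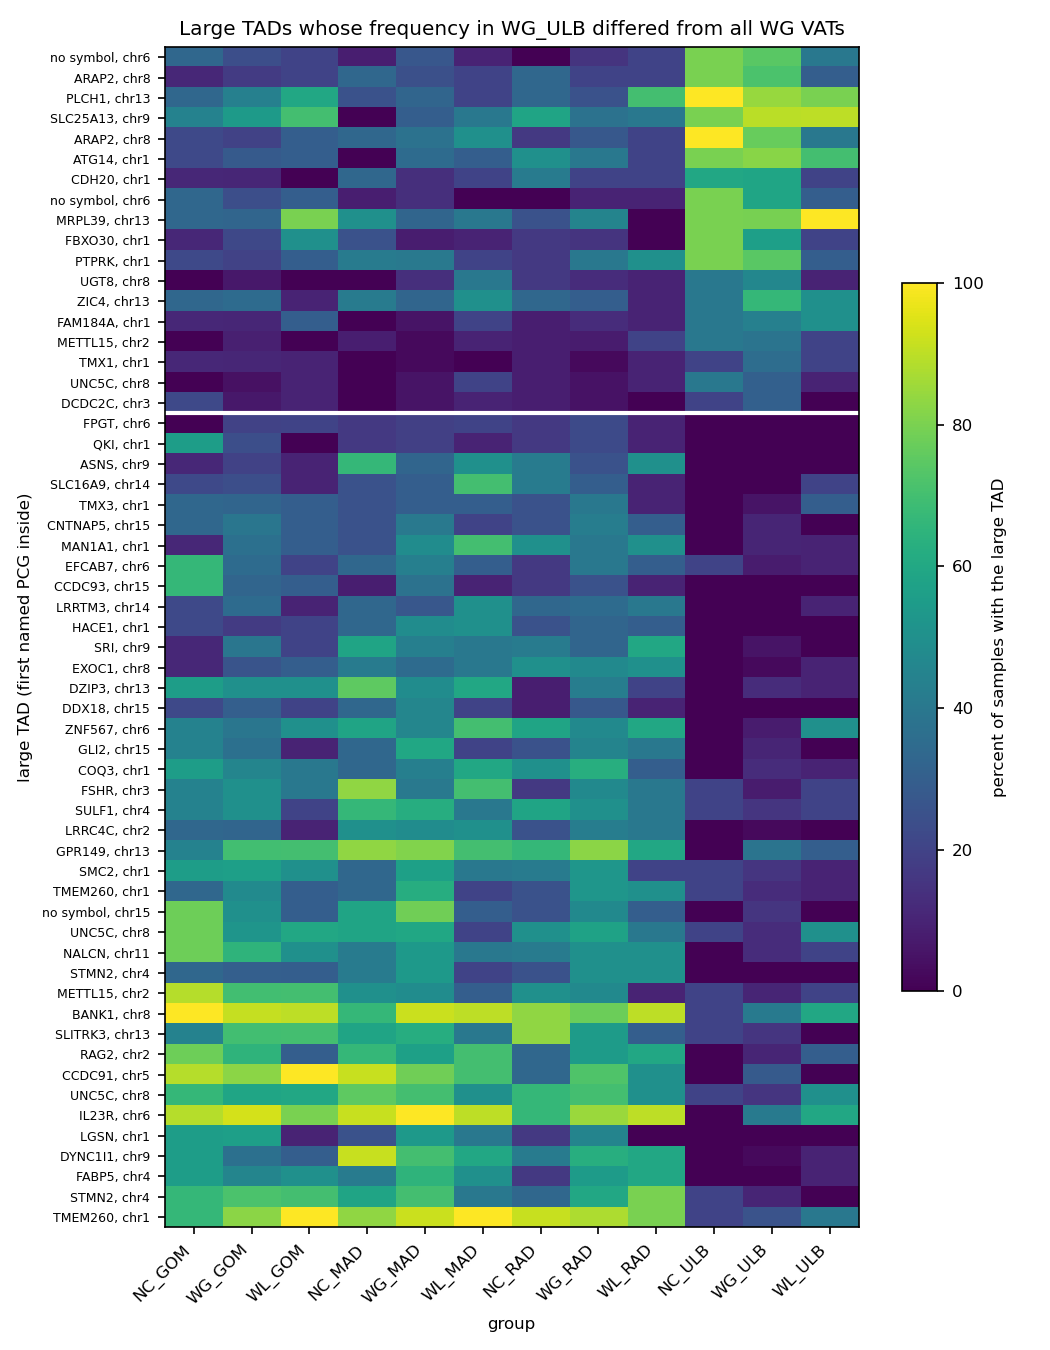
Percent of the samples of each group with a large TAD, as colour, for the 12 groups of diet and AT (horizontal axis) and for 58 of the 60 large TADs whose frequency in WG_ULB differed from that in each WG VAT (vertical axis, named by the first named PCG inside). The 18 above the white line were more frequent in WG_ULB and the 40 below it less frequent.

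Against each of the 3 WG VATs, 60 large TADs passed, 41 less frequent and 19 more frequent in ULB. The 3 comparisons share the WG_ULB samples. Several of the 60 overlap one another, also across the directions, so that they lie at 47 separate places (36 for the less frequent and 17 for the more frequent ones). The tests used WG samples only, but the 1337 large TADs tested were listed from all 240 samples. Some of the more frequent ones reached the limit of 10% of samples only with their WG_ULB samples. In the other diets, NC_ULB lay below every NC VAT in 38 of the 41 and above every one in 17 of the 19. WL_ULB lay below every WL VAT in 29 of the 41 and above every one in 8 of the 19. No test was run on these counts, and the matching share over all 1337 large TADs is not given. As ULB had fewer large TADs under every diet, the counts stand without a baseline and nothing is read from them. The less frequent ones had a median length of 1480 kb and the more frequent ones 1140 kb. Among the less frequent ones, EN1, an engrailed homeobox gene known from dermal fibroblasts of the back, lies in chr15:23360001-24900000, which was found in 30.4%, 45.9% and 27.5% of WG_GOM, WG_MAD and WG_RAD samples and 0% of WG_ULB samples.

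EN1 had a median of 12.8 TPM in WG_ULB (3.67 to 23.9), against 0.258 in WG_GOM (0 to 0.856), 0.316 in WG_MAD (0 to 1.08) and 3.95 in WG_RAD (1.87 to 8.25). ULB did not overlap with GOM and MAD and overlapped with RAD. The log2 fold changes of EN1 from GOM, MAD and RAD to ULB were 5.55 (SE 0.16), 5.07 (SE 0.18) and 1.65 (SE 0.10; largest adjusted p = 5.4e-24, edgeR). This gene was picked from the called domains for its role.

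Expression in the recurrent large TADs was compared gene by gene. Differentially expressed genes (DEGs) had an adjusted p below 0.05 by edgeR and a fold change above 1.5. Over the 6 AT pairs of WG, 101 of 721 tests in the recurrent large TADs (14.01%) were DEGs, against 10.8% of all PCGs tested. Between WG_GOM and WG_ULB there were 29 of 121 (17.9% of all genes were DEGs), 19 lower and 10 higher in ULB. Between WG_MAD and WG_ULB there were 19 (all genes 14.4%), and between WG_RAD and WG_ULB 14 (all genes 9.27%).

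Among the largest changes between ATs, NCAM2 was higher in ULB. NCAM2, a neural cell adhesion gene in a 2220-kb domain at chr13:183000001-185220000, had medians of 0.219 TPM in WG_GOM (0 to 0.593) and 3.90 TPM in WG_ULB from a lowest value of 0.373. Its log2 fold change was 4.58 (SE 0.25, adjusted p = 5.9e-29, edgeR), and it was higher in ULB than in MAD and RAD too (3.79 and 3.53). TPRG1, beside BCL6 and LPP at chr13:125380001-126600000, was also higher in ULB, with a log2 fold change of 2.99 from GOM (SE 0.20) and 2.72 from MAD (SE 0.22) and 1.70 from RAD. The tight junction gene CLDN11 was higher in ULB than in RAD by 3.24 (SE 0.32, adjusted p = 5.77e-14, edgeR), than in GOM by 2.84 and than in MAD by 1.26, and higher in MAD than in GOM (1.57) and RAD.

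DDIT4L, a stress-induced inhibitor of mTOR signalling, was highest in GOM, with a median of 21.7 TPM, against 3.85, 1.73 and 3.92 TPM in WG_MAD, WG_RAD and WG_ULB. Its log2 fold changes from GOM were -2.43, -3.39 and -2.21. NKAIN2, which binds a sodium pump subunit, also fell from GOM to MAD (-3.42, SE 0.27) and RAD (-2.45, SE 0.22), and less so to ULB (-1.27, SE 0.21). The immediate early nuclear receptor NR4A3 rose from a median of 4.02 TPM in GOM to 16.2 in MAD and 19.02 in RAD (log2 fold changes of 1.95 and 2.02), and it was higher in ULB than in GOM too (1.62). Among secreted factors, PAPPA, a protease that frees insulin-like growth factor, was lower in ULB than in GOM by -1.68 (SE 0.17), MAD (-1.50) and RAD (-1.04), and the Wnt amplifier RSPO3 was lower in RAD than in MAD, with medians of 10.5 and 22.2 TPM, and lower in RAD than in GOM (-1.88) and ULB. The potassium channel gene KCNN2 was lower in ULB than in MAD (-1.19) and GOM (-0.84). SCIN, an actin-severing protein, was lower in ULB than in GOM (-0.79), MAD (-0.71) and RAD (-0.85).

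PRKG1, in one of the 10 most recurrent domains, was called in all 3 comparisons of WG_GOM with another AT. Its medians were 22.4 TPM in WG_GOM (10.1 to 40.9), 14.2 in WG_MAD (9.06 to 21.05), 6.90 in WG_RAD (4.19 to 17.1) and 7.31 in WG_ULB (3.91 to 15.9), with log2 fold changes from GOM of -0.67, -1.61 and -1.53. The ranges overlap. In the same domain, the mean A-B index was -1.16 in WG_GOM and -2.11 in WG_RAD, with 50 of its 67 bins called lower.

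Diet comparisons gave DEGs at shares close to those of all genes. Over the 4 ATs, 68 of 485 tests between NC and WG were DEGs (14.02%, against 14.3% of all genes), and between WG and WL 40 of 482 (8.30%, against 9.32%). NC_GOM against WG_GOM gave 27 DEGs of 122 tested (all genes 26.7%). Low-quality libraries bear on this count: 27 of 236 RNA libraries had a Q30 share below 89%, 7 of them among the 9 of NC_GOM. Without them, 2 NC_GOM libraries were left and 0 of these genes were DEGs by edgeR. In MAD the count went from 18 to 13, in RAD from 20 to 9 and in ULB from 3 to 1.

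SCIN was higher in WG than in NC in 3 ATs, with a median of 15.4 TPM in NC_MAD (8.83 to 30.8) and 67.4 in WG_MAD (log2 fold change 2.30, SE 0.36, adjusted p = 1.58e-05, edgeR), 10.9 and 89.3 TPM in RAD (2.60, SE 0.42) and from 23.7 TPM in NC_GOM (1.21, SE 0.40). The peptidase gene CPQ was higher in WG in the same VATs, from 12.7 to 35.2 TPM in RAD (1.29, SE 0.17), and with log2 fold changes of 1.09 in MAD and 0.85 in GOM. The cholesterol ester hydrolase NCEH1 was higher in WG_MAD and WG_RAD (1.09 in both), and SH3BGRL2 in WG_GOM (1.15, SE 0.28). KIAA0408 fell in all 4 ATs (GOM -0.998, MAD -0.99, RAD -1.03 and ULB -1.17). DDIT4L fell in the VATs, with the largest fold change in MAD (-2.48, SE 0.30). Its medians there were 6.90 TPM in NC_MAD (2.40 to 99.6) and 3.85 TPM in WG_MAD (1.14 to 9.04). These medians differ by less than the fold change, on which the highest NC_MAD values weigh. LRRC34 fell in the VATs too, from -1.63 in GOM to -0.77 in MAD. GPR160 fell in GOM (-2.55) and RAD (-1.28), HHLA2, a ligand of T-cell costimulation, in RAD (-1.28) and GOM (-0.89), TPD52L1 in ULB (-1.44) and GOM (-1.10), and LRRN1 in RAD (-1.59). Without the low-Q30 libraries all of these calls in GOM were lost, as were those of LRRN1, HHLA2, LRRC34, DDIT4L and GPR160 in RAD and KIAA0408 in ULB, and TPD52L1 in ULB was no longer among the genes tested. GPR160 in GOM then had a log2 fold change of 1.26, in the opposite direction.

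CDH11, in the most recurrent large TAD, rose in 3 ATs with weight gain. Its medians went from 18.3 to 43.2 TPM in MAD, 22.7 to 67.9 in RAD and 23.8 to 58.7 in ULB, with log2 fold changes of 0.85 (SE 0.22), 1.18 (SE 0.15) and 1.14 (SE 0.22, adjusted p = 0.00141, edgeR). In GOM they were 51.4 and 62.0 TPM, which did not pass (-0.19, SE 0.17). The 5 NC_ULB libraries lay between 16.7 and 31.5 TPM and overlapped with WG_ULB from 21.3 TPM up. The CDH11 call in ULB was kept without the low-Q30 libraries (log2 fold change 1.27). Beside these changes stand the cell type markers. The summed level of the macrophage markers (6 of 7 measured) had medians of 427 TPM in NC_GOM and 634 in WG_GOM, 230 and 513 in MAD, 291 and 458 in RAD, and 357 and 419 in ULB, with overlapping ranges. That of the 14 adipocyte markers had medians of 9821 TPM in NC_GOM and 20688 in WG_GOM, 22063 and 24013 in MAD, 25157 and 29240 in RAD, and 22002 and 27770 in ULB. The progenitor markers (6 of 7 measured) had summed medians of 2013 TPM in NC_GOM and 2055 in WG_GOM, and 1431 and 2129 in MAD. In RAD these were 1420 and 1605 TPM, and in ULB they were 2798 and 1976 TPM, lower in WG. Their part in the diet changes of SCIN, CDH11 and the other genes was not tested.

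From WG to WL, ECHDC1, which removes a side product of fatty acid synthesis, fell in all 4 ATs, from 60.7 to 27.1 TPM in GOM, 65.9 to 26.2 in MAD and 76.9 to 27.4 in RAD (log2 fold changes of -1.22, -1.56 and -1.73, largest adjusted p = 0.000554, edgeR), and with a log2 fold change of -1.38 in ULB. The transcriptional repressor BCL6 fell in all 4 too (GOM -0.93, MAD -1.08, RAD -1.14 and ULB -1.05). PDE4B, a phosphodiesterase that degrades cyclic AMP, rose in MAD from 10.7 to 20.9 TPM (1.23, SE 0.21) and less in GOM (0.67). CD226 rose in MAD (1.18), though its medians differed by less, with 2.15 TPM in WG_MAD (0.962 to 8.84) and 2.94 in WL_MAD (1.62 to 16.7). LRRC34 fell in MAD (-1.32). NPAS3 and NR4A2 rose in RAD (0.78 and 0.73), NKAIN2 and DDIT4L in GOM (1.28 and 1.17). In ULB, SPRY1 rose from 56.3 to 94.4 TPM (0.68, SE 0.16, adjusted p = 0.00135), while TPRG1 and NCAM2 fell (-1.53 and -1.50). Without the low-Q30 libraries, the calls of DDIT4L and BCL6 in GOM and NCAM2 in ULB were lost.

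The compartment score of the recurrent large TADs was compared in their 3777 bins with limma, where a call needed an index difference over 0.75 and passing of the adjusted threshold of 0.05. Over the 6 AT pairs of WG, 1745 tests passed (7.70%), against 10.3% of all bins. For WG_GOM and WG_ULB, 630 bins passed (16.7%, all bins 18.8%), 476 of them higher in ULB. For MAD and ULB there were 351 (9.29%, all bins 12.1%), 325 higher in ULB, and for RAD and ULB 278 (7.36%, all bins 11.3%), 260 higher in ULB. For MAD and RAD the count was 0 by limma, compared with 1.24% of all bins, and 1127 bins had an unadjusted p below 0.05. In the 3 pairs with ULB, the share of bins called in these TADs was below that of the genome, and most calls were toward A in ULB. These pairs share the WG_ULB samples.

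A few domains shifted almost as a whole. The RUNX1 domain, chr13:198240001-199560000, had all 66 bins higher in WG_ULB than in WG_GOM, with means of 2.62 ± 0.47 and 1.32 ± 0.35 (SD, n = 39 and 46), and RUNX1, a transcription factor of blood and mesenchymal lineages, was higher as well (log2 fold change 0.60, SE 0.18, adjusted p = 0.0031, edgeR). In the THBS1 domain, chr1:131460001-132680000, 57 of 61 bins were higher (0.75 to 1.87), and in the LDB2 domain, chr8:11420001-12540000, 47 of 56 (0.68 to 1.72). A domain without a PCG start, chr13:7240001-8980000, stayed deep in B and still had 73 of 87 bins higher in ULB (-3.59 to -2.47). In the IRS1 domain, 32 of 56 bins were higher in ULB than in GOM, and 39 of 56 than in MAD (-2.07 to -1.14) and than in RAD. IRS1 itself was higher in WG_ULB than in WG_GOM by 0.66 (SE 0.16, adjusted p = 0.000357, edgeR). It was not a DEG between ULB and MAD or RAD, where more of its bins were called. THBS1 and LDB2 were not among the DEGs between WG_GOM and WG_ULB, and THBS1 was lower in WG_ULB than in WG_RAD (-0.71). A shift of the index thus did not always come with a change of expression. In the CDH11 domain, 37 of 60 bins were lower in WG_MAD than in WG_GOM. These domains were picked after their values were seen.

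Between NC and WG, 717 tests in these bins passed (4.75%, all bins 4.43%), and between WG and WL 458 (3.03%, all bins 4.33%). Most of the first came from ULB, with 376 bins (9.95%, all bins 6.15%), 372 of them higher in WG. That count rests on 5 NC_ULB samples: without replicate 5 it was 36 (0.688% of all bins), without replicate 12 it was 164, and without replicates 9, 2 or 7 it was 301, 490 or 603. In the CDH11 domain, 33 of 60 bins were higher in WG_ULB than in NC_ULB, with means of -1.43 ± 0.19 and -2.20 ± 0.24. In the domain of the corepressor TLE3, chr1:167300001-168360000, which had the highest index of the 59, 23, 30 and 21 of 53 bins were higher in WG than in NC in GOM, MAD and RAD. From WG to WL, the LDB2 domain had 29 of 56 bins higher in RAD, and in ULB the NR4A3 domain, chr1:240980001-242300000, had 30 of 66 bins higher and the CBLN2 domain, chr1:150880001-152400000, 49 of 76 lower. Normalization bears on these counts, since with the index quantile normalized between samples the tests gave 206 calls in place of 717 and 125 in place of 458. The index as deposited also moved over the whole genome: the median difference over all bins was 0.25 from NC_ULB to WG_ULB, where the bins of recurrent large TADs had 0.33, and 0.11 from WG_GOM to WG_ULB, where they had 0.19.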

How the data were processed

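Hi-C with matched RNA-seq, and ChIP-seq of H3K27ac, of 4 adipose tissues under 3 diets were analysed from the deposited tables, with groups and replicate numbers taken from the sample labels. Coordinates are Sscrofa11.1 on 18 autosomes, in 20-kb bins. Large TADs, the lists of genes and the comparisons were chosen with earlier results of these data known.

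The authors called TADs with deDoc on balanced, normalized 20-kb contact matrices and removed the shortest; the deposited TAD tables give a start and an end per domain and no unit of strength. The A-B index was deposited as a score per bin. The authors deposited expression in 2 forms, estimated counts (expected counts that need not be whole) and TPM, both from kallisto 0.43.0. There were 236 libraries, with totals of 3.34 to 22.9 M counts (median 16.8 M). Enhancer tables were made by the authors from reads aligned with BWA 0.7.15 and handled with SAMtools 1.3.1, with peaks called by SICER. Samples were pooled where there were several, and only the positions were used. The tables of non-coding transcripts were not used. In the A-B index table, 9 columns matched no sample and were left out.

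From these files, TADs of at least 1 Mb were kept, counted and joined to bins. Non-redundant large TADs were merged within 100 kb at both ends, and those in at least 70% of samples were called recurrent. Group values per sample were compared with exact two-sided rank-sum or signed-rank tests (SciPy 1.17.1), frequencies with Fisher's exact test, and differences of effects by permutation, all with Benjamini-Hochberg adjustment. Bins were tested with limma 3.58.1 and rounded counts with edgeR 4.0.16 (quasi-likelihood test, protein-coding genes above 0.5 TPM in 80% of a group), with DESeq2 1.42.0 as an alternative, in R 4.3.3. Log2 fold changes are from edgeR, and standard errors are derived from its test. RefSeq gene positions were joined by symbol for 13052 of 21280 genes. The scripts were tested on simulated data with known changes. Precision is known for the TADs only as spread between samples, since the TAD and index tables hold no counts.

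Genes named are the 2 DEGs with the largest and the 2 with the smallest log2 fold change per comparison, the 3 genes of highest TPM in the 10 most recurrent large TADs, and up to 5 members per list. Regions named are those 10, the longest, and per comparison the 2 with the largest difference of frequency in each direction. Genes and regions outside this rule were chosen after their values were seen: TCF21, NEGR1, PRKG1, IRS1, THBS1 and LDB2 in the AT comparison, EN1, the recurrent large TADs low in ULB, the domains given for the A-B index, and RUNX1. So were the further versions of the DLX and UNC13C domains. Genes named by the rule are also given in comparisons where the rule did not pick them, such as CDH11 in MAD and RAD. Nothing in the labels says that samples of a group came from separate pigs, so p-values measure the spread between samples.

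Replicate numbers are shared between tissues, and nothing in the labels says that a number marks a pig. The paper states that all the ATs were taken from each carcass, and the main tests between ATs did not pair samples. In the A-B index, same-numbered WG samples had a median correlation of 0.09 to 0.21 and not every pair was above 0.1. Over all pairs of samples the medians were -0.004 to 0.04 in the index and -0.06 to 0.02 in expression. In expression the same-numbered medians were 0.61 to 0.68, with every pair above 0.1 for WG_MAD and WG_ULB (30 of 30) and for WG_RAD and WG_ULB (33 of 33). Some genes and domains are not reported here.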

Additional observations from a re-analysis of the deposited data

Results flagged for a closer look

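Among 18 tests for a sample far from its group, of which chance marks about 1 in 20, NC_ULB replicate 2 stood apart from the other 4 NC_ULB samples, with 294 large TADs and a genome share of 17.79%.

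Of 36 differences of a diet effect between tissues, 10 passed a permutation test. The mean number of large TADs changed from NC to WG in GOM by -8.03, in MAD by -23.8, in RAD by 43.5 and in ULB by 45.96. The change differed by 51.49 between RAD and GOM (adjusted p = 0.00581), 53.99 between ULB and GOM (adjusted p = 0.046), 67.22 between RAD and MAD (adjusted p = 0.00018) and 69.72 between ULB and MAD (adjusted p = 0.00209; permutation tests). The genome share changed by -0.767, -1.81, 2.80 and 2.69 points in GOM, MAD, RAD and ULB. This change differed by 3.564 points between RAD and GOM (adjusted p = 0.00823), 4.605 between RAD and MAD (adjusted p = 0.00018) and 4.495 between ULB and MAD (adjusted p = 0.00276; permutation tests). The differences with ULB rest on the 5 NC_ULB samples.

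The A-B index of large TADs minus the rest changed from WG to WL in GOM by -0.10, in MAD by 0.11, in RAD by 0.35 and in ULB by -0.16. This change differed by 0.4463 between RAD and GOM (adjusted p = 0.00117), -0.2688 between ULB and MAD (adjusted p = 0.0496) and -0.5051 between ULB and RAD (adjusted p = 0.00024; permutation tests).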

How the results depend on the processing

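Pairs of ATs called for number (12), genome share (11) and A-B index (4) changed by at most 1 under the length limits, the depth slope, the permutation test and the samples left out. Diet pairs called for number went from 8 to 4 at 800 kb and 5 at 1200 kb, and those for the A-B index from 2 to 4 with the depth slope removed. Recurrent large TADs went from 59 to 31 with ends within 40 kb, 115 with a reciprocal overlap of at least 80%, 82 with a match of any length and 14 when at least 70% of each of the 12 groups was required. The frequency calls, 683 between ATs and 0 in both diet sets, became 34, 8 and 9 under a rule of at least 70% against under 30%. Bins called in recurrent large TADs went from 1745 (ATs), 717 (NC and WG) and 458 (WG and WL) to 4669, 1928 and 1968 with an index difference above 0.5, and to 1473, 206 and 125 with quantile normalization. Leaving out an NC_ULB replicate gave 377 to 944 for NC and WG, with the lowest without replicate 5. DEGs went from 101 to 153 between ATs without a filter on low genes, and from 68 to 23 between NC and WG without libraries of a Q30 share below 89%, where GPR160 in GOM turned to 1.26. With a replicate block over shared numbers, 9 AT pairs were called for number, 8 for share and 3 for the A-B index, and the counts were 1754 bins and 103 DEGs. With 5 pairs the NC_ULB comparisons cannot pass the paired exact test. Among single named results, 423 alternatives kept the call, 55 lost it and 1 turned. The cause of these changes was not tested. The named-TAD matching and the counts per comparison without single libraries were added after seeing the data. Depth limits the TAD and index values in a way these files do not show.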
